A study of Mus musculus with 8 samples.

Results

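The genes of the phagocyte NADPH oxidase, of its vascular relative Nox4 and of the inducible nitric oxide synthase were followed in atherosclerotic lesions of mice, some of which had received an antibody that neutralises IL-1β, a cytokine of activated macrophages, and the others immunoglobulin G (IgG). They were chosen by name, as the rows of the deposited count table whose gene symbol is Cybb, Cyba, Ncf1, Ncf4, Rac2, Nox4 or Nos2. All 7 of 7 were found among the 24391 gene symbols of the table, and all 7 passed the filter on low counts, which kept 15980 genes. Each library came from a brachiocephalic artery lesion of 1 mouse, with 4 IgG animals and 4 antibody animals. Both groups were C57BL/6 mice on a Western diet for 18 weeks, were described as wild type mice of a smooth muscle lineage tracing line, and differed in the injected immunoglobulin alone, as far as the labels go. The Cre driver of that line, the age of the mice, the antibody dose and any allele that raises plasma lipids are not given in the sources used here.

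The phagocyte NADPH oxidase is an enzyme of macrophages and neutrophils that passes electrons from NADPH to oxygen and so makes superoxide. Its catalytic subunit (Cybb) and membrane partner (Cyba) are joined on activation by a cytosolic organiser (Ncf1), an adaptor (Ncf4) and the leukocyte GTPase Rac2. Nox4 is a related oxidase of smooth muscle, endothelium and fibroblasts that needs Cyba but none of the cytosolic subunits and releases mainly hydrogen peroxide, and Nos2 is the inducible nitric oxide synthase of activated macrophages.

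Library totals lay between 20137336 and 29453014 counts assigned to genes. The members had 274 (Nos2) to 10167 (Cybb) counts in a library, and the counting error alone (Poisson) gave a coefficient of variation of 1.21% to 5.13%. In 13 of the 14 groups of 4 the spread between animals was at least 3.33 times that. The exception was Rac2 in antibody animals, with a spread of 3.22% beside a counting error of 3.63%. Levels are given as CPM, the count divided by the TMM-scaled library size and set to a common total. Markers of the labelled cell types were present. All 12 macrophage markers and all 8 smooth muscle contractile markers passed the filter, whereas of 10 neutrophil markers 9 were in the table and 6 passed. The neutrophil genes S100a8 and S100a9 had 2.58 to 5.43 and 2.58 to 6.24 CPM, and Csf3r, from the same list, 12.7 to 27.9 CPM. In bulk tissue, fewer cells of a type and less RNA per cell cannot be told apart.

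In mm9, the build of the deposited table, Cybb spans chromosome X, 9012380 to 9046450, Cyba chromosome 8, 124948671 to 124956840, and Ncf1 chromosome 5, 134695923 to 134705495. Ncf4 (78075241 to 78093010) and Rac2 (78389599 to 78403213) both lie on chromosome 15. Nox4 spans chromosome 7, 94395159 to 94547218, and Nos2 chromosome 11, 78734361 to 78773626. These spans run from the first to the last exon, and the counts cover exons only.

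Start-site sequence is shown for Cybb, Cyba, Ncf1 and Nox4, the members for which a RefSeq promoter was found. Levels of Cybb, Cyba and Ncf1 went up and down together between lesions, and that of Nox4 did not follow them (values below). Ncf4 and Nos2 also varied with the former, but they and Rac2 had no promoter in the set used. RefSeq promoters (GRCm38.p6, a later build than that of the counts) matched 4 of the 7 members. The 150 bases before each start are printed 5′ to 3′ on the gene's strand, and capitals mark any match to a CCAAT box or, on either strand, to the Sp1 GC box GGGCGG.
Cybb, chrX:9469325-9469474, minus strand: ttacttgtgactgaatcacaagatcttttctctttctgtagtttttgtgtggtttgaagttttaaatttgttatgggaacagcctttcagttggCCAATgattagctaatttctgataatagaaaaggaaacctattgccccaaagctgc
Cyba, chr8:122432941-122433090, minus strand: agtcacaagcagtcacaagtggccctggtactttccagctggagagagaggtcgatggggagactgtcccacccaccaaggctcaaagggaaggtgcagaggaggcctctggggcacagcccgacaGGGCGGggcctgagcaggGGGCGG
Ncf1, chr5:134229626-134229775, minus strand: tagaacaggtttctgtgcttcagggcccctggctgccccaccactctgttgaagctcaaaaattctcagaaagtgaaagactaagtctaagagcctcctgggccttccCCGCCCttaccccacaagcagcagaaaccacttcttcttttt
Nox4, chr7:87246499-87246648, plus strand: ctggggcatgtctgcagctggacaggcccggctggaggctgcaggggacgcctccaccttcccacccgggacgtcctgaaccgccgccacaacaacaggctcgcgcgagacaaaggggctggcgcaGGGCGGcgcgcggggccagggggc

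The stretches differ in base composition, from 35.3% G and C in Cybb through 50.7% in Ncf1 and 64.7% in Cyba to 74% in Nox4. Matches were searched on both strands from 250 bases before to 50 bases after the start. Cybb held 1 CCAAT match, 56 to 52 bases before its start, and 1 match to the PU.1 core GAGGAA on the other strand, 10 to 15 bases after the start. PU.1 is the myeloid transcription factor encoded by Spi1. Cyba held 2 GC boxes, 24 to 19 and 6 to 1 bases before the start, and Ncf1 and Nox4 held 1 each, at 42 to 37 and at 24 to 19 bases before the start. The TATA box TATAAA matched in none of the 4. Among 32851 RefSeq promoter windows of the same length, 28.3% held GAGGAA, 37.4% CCAAT, 35.7% GGGCGG and 13.6% TATAAA, so each match is of a common kind and is given as a description.

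**Figure D1:**
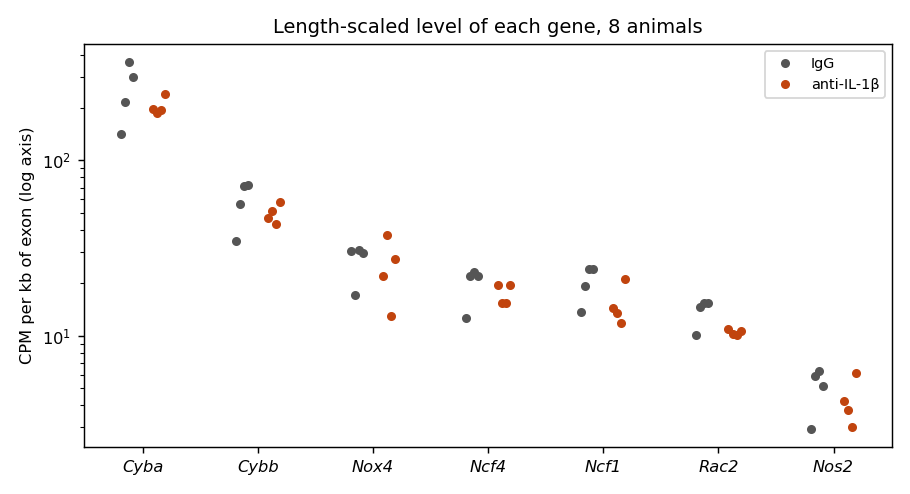
Level of each member per kilobase of exon (CPM per kb, log axis) in the 8 animals, with 1 point per animal, IgG in grey and antibody in orange, ordered by the median over animals. Cyba lay above every other member in all animals and Nos2 below every other member.

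Scaled by exon length, the membrane partner stood far above the rest. Cyba had a median of 205 CPM per kb over the 8 animals (141 to 363) and Cybb 53.8 (34.5 to 72.2), so their ranges did not overlap, and the median ratio within a library was 4.14. Nox4 followed with 28.5 (13.03 to 37.5). Its range overlapped that of Cybb, but Cybb was higher within each of the 8 libraries. The cytosolic subunits Ncf4 (19.4, 12.6 to 23.2) and Ncf1 (16.8, 11.9 to 24.1) were not separated, as Ncf4 was the higher in 4 of 8 libraries, and Nox4 was above Ncf4 in 6 of 8. Rac2 (10.8, 10.1 to 15.4) was below Ncf1 in 8 of 8 libraries although their ranges overlapped. Nos2 was lowest at 4.71 (2.95 to 6.28), with no overlap with Rac2.

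**Figure D2:**
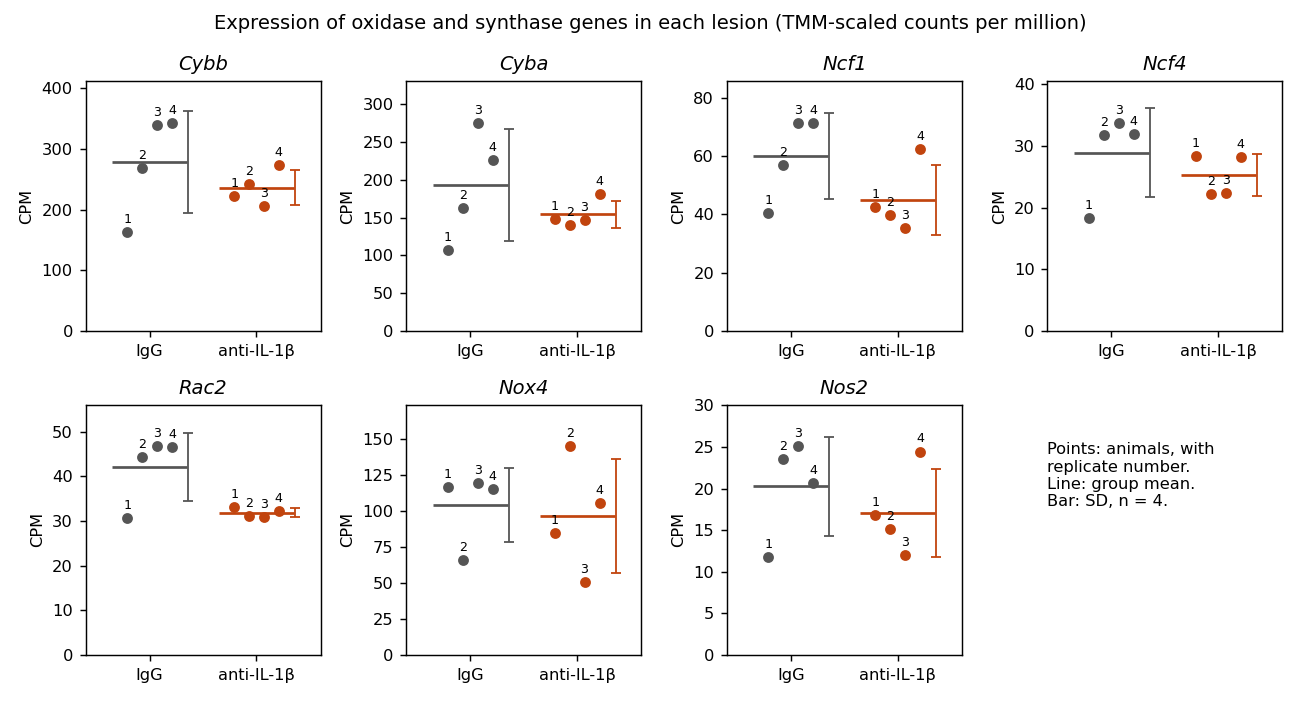
CPM of each member in each animal (points, numbered by replicate), with the group mean (line) and SD (bar, n = 4). IgG animal 1 is the lowest IgG value in all panels but that of Nox4, and the antibody values of Rac2 lie between 30.8 and 33.1 CPM.

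The comparison asks whether neutralising IL-1β changed these genes in an advanced lesion. In edgeR (quasi-likelihood test, Benjamini-Hochberg adjusted over 15980 genes), 0 of 7 members passed an adjusted p of 0.05 (adjusted p = 0.9997 for each), where 0.00% of all genes passed. DESeq2 and limma-voom also called 0 of 7, with smallest member adjusted p of 0.9798 and 0.1504, where 0.0501% and 0.0125% of all genes passed. The log2 fold change was below 0 for 7 of 7 members, with a median of -0.25, where 52.3% of all genes were below 0 and the median of all genes was -0.01. At an unadjusted p under 0.05, 1 member (Rac2) was lower, where 2.06% of all genes were lower at that threshold. Groups overlapped for 7 of 7 members, where 1.25% of all genes had antibody values all below the IgG values.

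Cybb, the catalytic subunit, had 164, 268, 339 and 343 CPM in IgG animals 1 to 4 and 222, 243, 206 and 274 CPM in antibody animals 1 to 4. The antibody values sat inside the IgG range, above IgG animal 1 and mostly below the other 3. The means were 278 ± 83.8 and 236 ± 29.3 CPM (SD, n = 4), with a log2 fold change of -0.24 ± 0.22 (SE) and a 95% interval of -0.74 to 0.26. Cyba, which stabilises Cybb in the membrane, had 107, 163, 275 and 227 CPM in IgG and 148, 141, 147 and 181 CPM in antibody animals. The IgG animals were widely spread, and the antibody animals lay in the lower part of that spread. The log2 fold change of Cyba was -0.32 ± 0.26 (95% interval -0.90 to 0.25).

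Ncf1, the organiser that brings the cytosolic subunits to the membrane, had 40.7, 56.9, 71.3 and 71.4 CPM in IgG and 42.6, 39.9, 35.3 and 62.4 CPM in antibody animals. Of the antibody animals, 3 were near the lowest IgG animal, and antibody animal 4 lay between IgG animal 2 and the higher IgG animals 3 and 4. The log2 fold change was -0.42 ± 0.22 (95% interval -0.91 to 0.08, unadjusted p = 0.0923 in edgeR). Ncf4, an adaptor that binds a membrane lipid of phagosomes, had 18.3, 31.7, 33.7 and 31.9 CPM in IgG and 28.3, 22.3, 22.3 and 28.2 CPM in antibody animals. All 4 antibody values fell in the gap between IgG animal 1 and the other 3 IgG animals. The log2 fold change of Ncf4 was -0.19 ± 0.19 (95% interval -0.63 to 0.24).

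Rac2, the GTPase that switches the assembled oxidase on in leukocytes, gave the clearest split. It had 30.7, 44.4, 46.7 and 46.5 CPM in IgG and 33.1, 31.2, 30.8 and 32.3 CPM in antibody animals. The 4 antibody animals differed by no more than counting error (SD 1.03 CPM), 3 IgG animals stood well above them, and IgG animal 1 was the lowest of all 8. The means were 42.1 ± 7.64 and 31.8 ± 1.03 CPM (SD, n = 4), with a log2 fold change of -0.40 ± 0.14 (95% interval -0.72 to -0.09, unadjusted p = 0.0175, rank 180 of 15980 genes in edgeR). The two-sided exact permutation test over the 70 assignments of animals gave p = 0.143 for Rac2, and adjusted over all genes p = 1.0. With a smallest possible p of 0.0286, no single gene could pass that adjustment, so the adjusted value decides nothing. Rac1, the widely expressed paralog that can serve the oxidase in Rac2's place, had a log2 fold change of -0.07 ± 0.13.

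Nox4, the oxidase of smooth muscle and other wall cells, had 117, 66.0, 120 and 115 CPM in IgG and 84.8, 145, 50.4 and 105 CPM in antibody animals. The highest and the lowest of the 8 values were both in the antibody group. Its log2 fold change was -0.12 ± 0.30 (95% interval -0.80 to 0.57), and it was 0.10 ± 0.25 without antibody animal 3. Nos2 had 11.8, 23.6, 25.1 and 20.7 CPM in IgG and 16.8, 15.1, 11.99 and 24.5 CPM in antibody animals. Low and high animals occurred in both groups, and the log2 fold change was -0.25 ± 0.27 (95% interval -0.85 to 0.36). The intervals of all 7 members lay within 2-fold in either direction.

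**Figure D3:**
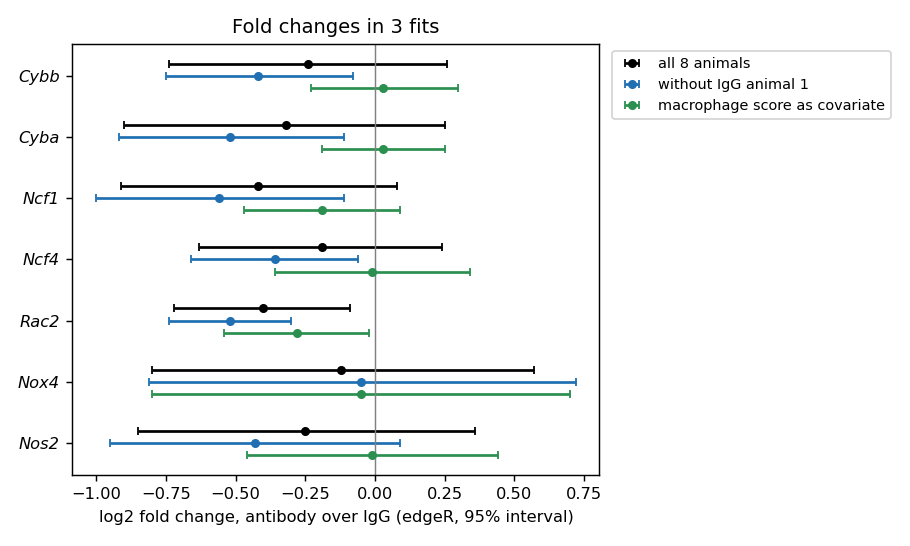
Log2 fold change of each member, antibody over IgG, with its 95% interval from edgeR, for all 8 animals (black), without IgG animal 1 (blue) and with the macrophage score as a covariate (green). Cybb moves from -0.24 to -0.42 without IgG animal 1 and to 0.03 with the covariate.

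The size of the difference depended on single animals, in both directions. Without IgG animal 3, the members' median log2 fold change went from -0.25 to -0.13, with Cyba at -0.10 ± 0.23, Cybb at -0.13 ± 0.23, Ncf4 at -0.11 ± 0.21 and Nos2 at -0.13 ± 0.29. Without IgG animal 4 Cybb had -0.12 ± 0.24, and without antibody animal 3 Nos2 had -0.11 ± 0.27. Rac2 moved less, to -0.35 ± 0.15 without IgG animal 3 and -0.35 ± 0.16 without IgG animal 4 (unadjusted p = 0.0478 and 0.0539 in edgeR). Without IgG animal 1 the members' median was -0.43, and the log2 fold changes were -0.42 ± 0.15 for Cybb, -0.52 ± 0.18 for Cyba, -0.56 ± 0.20 for Ncf1, -0.36 ± 0.13 for Ncf4, -0.52 ± 0.10 for Rac2 and -0.43 ± 0.23 for Nos2. Then 5 of 7 members were lower at an unadjusted p under 0.05 in edgeR, where 4.04% of all genes were, and Rac2 ranked 14 of 15973 genes (unadjusted p = 0.000454, adjusted p = 0.425). The remaining 2 were Nox4 (-0.05 ± 0.34) and Nos2. In that comparison the groups of Rac2 and of Ncf4 no longer overlapped, where 4.77% of all genes were lower without overlap. There 0 of 7 passed the adjusted threshold, where 0.00626% of all genes did. Without IgG animal 4 the count at an unadjusted p under 0.05 was 0 of 7 (1.35% of all genes lower), and without antibody animal 4 it was 2 of 7, Rac2 and Ncf1 (2.06%). With the replicate number as a block it was 1 of 7, Rac2 (1.45%). In limma-voom, which weighted libraries by quality, it was 4 of 7, namely Cybb, Cyba, Ncf1 and Rac2 (9.31%).

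Macrophage markers moved with the phagocyte genes. The macrophage score, the mean log2 CPM of the 12 markers, which hold no member, was 7.42, 7.85, 8.57 and 8.33 in IgG and 7.65, 7.74, 7.65 and 8.13 in antibody animals. IgG animal 1 had the lowest score of the 8, and 12 of 12 markers had a log2 fold change below 0 (median -0.27, 0 past the adjusted threshold, exact permutation p of the score 0.429). For Csf1r, which encodes a receptor that macrophages need to survive, the value was -0.38 ± 0.15 (unadjusted p = 0.0265 in edgeR). Csf1r had the smallest p of the 12 and was the only 1 lower at an unadjusted p under 0.05, where 2.06% of all genes were. Over the 8 animals the score correlated with Cyba at r = 0.98 and rho = 0.93 (exact permutation p = 0.000124 and 0.00223, adjusted over 27 relations 0.00335 and 0.0201). It correlated with Cybb at r = 0.94 and rho = 0.98 (exact permutation p = 0.000273 and 0.000397, adjusted 0.00368 and 0.0107). Without the 2 animals farthest from the median score (IgG animals 3 and 4), r was 0.92 for Cyba and 0.91 for Cybb. For Ncf1 it was 0.90 on all animals and 0.80 without those 2, and for Ncf4 0.81 and 0.71, the latter with an exact permutation p of 0.119. Of 14623 other genes with a mean of at least 1 CPM, 7.73% reached an r of 0.81 with the score.

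**Figure D4:**
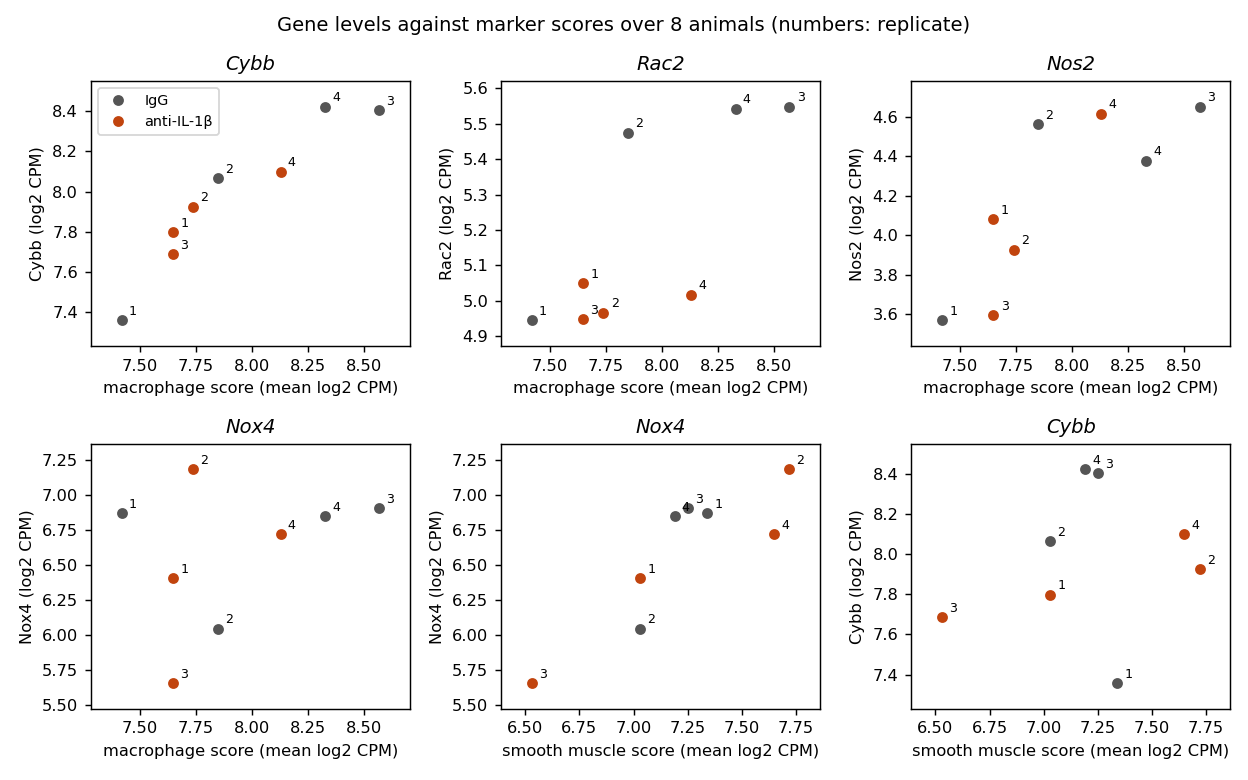
Log2 CPM of Cybb, Rac2, Nos2 and Nox4 against the macrophage score, and of Nox4 and Cybb against the smooth muscle contractile score, over 8 animals numbered by replicate. Cybb follows the macrophage score (r = 0.94) and Nox4 the smooth muscle score (r = 0.87), while the Rac2 values fall into 2 separate sets.

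With the macrophage score as a covariate in edgeR, the fold changes of Cybb (0.03 ± 0.12), Cyba (0.03 ± 0.10), Ncf4 (-0.01 ± 0.15) and Nos2 (-0.01 ± 0.20) were near 0. Ncf1 had -0.19 ± 0.12 and Rac2 -0.28 ± 0.12 (unadjusted p = 0.0388, adjusted p = 1.0, where 2.27% of all genes were lower at an unadjusted p under 0.05). As a log2 difference from the macrophage score within each library, the groups overlapped for 7 of 7 members. That difference was -2.67 ± 0.30 for Rac2 in the IgG group against -2.79 ± 0.22 with the antibody (SD, n = 4, exact permutation p = 0.543), and for Cyba -0.54 ± 0.09 and -0.53 ± 0.10 (exact permutation p = 0.943). The smallest exact permutation p of the 16 ratios examined was 0.229, and the smallest adjusted over them was 0.914. A single ratio could not pass 0.05 after that adjustment, as the smallest possible p was 0.0286.

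The subunits of the phagocyte oxidase varied together between animals. For the 6 pairs among Cybb, Cyba, Ncf1 and Ncf4, r lay between 0.82 and 0.94 and rho between 0.81 and 0.93, and all 6 pairs passed 0.05 after adjustment over the 27 relations (exact permutation, largest adjusted p = 0.0294 for r and 0.0392 for rho). With values centred on the group means r was 0.83 to 0.94. Without the 2 animals farthest from the median of the first gene of each pair, r was 0.66 to 0.94, and 3 of 6 pairs kept an unadjusted exact permutation p under 0.05. For the other 3 pairs r was 0.66, 0.71 and 0.77 over the remaining 6 animals, so their calls rest on the animals left out. Of 14635 genes, 5.07% reached an r of 0.82 with Cybb, whose own r was 0.94 with Cyba, 0.87 with Ncf1 and 0.89 with Ncf4. No such share was computed for the pairs without Cybb. Rac2 values formed 2 separate sets, with 70.6% of its log2 range taken by 1 gap, so a pooled correlation was not computed for it.

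Nos2 was correlated with the 4 phagocyte oxidase genes (r = 0.79 to 0.90, rho = 0.79 to 0.90, 4 of 4 past 0.05 adjusted over 27 relations, exact permutation) and kept r of 0.82 to 0.94 without the 2 farthest animals. With the macrophage score it had r = 0.81 and rho = 0.90 (exact permutation p = 0.0174 and 0.00456, adjusted 0.0294 and 0.0205), and r = 0.87 without the 2 farthest animals. Of 14623 other genes, 7.73% reached an r of 0.81 with that score. For the 4 oxidase genes, the share of all genes reaching these r with Nos2 was not computed. The 4 of 4 is therefore not read as particular to Nos2. Nos2 competes for arginine with arginase 1 (Arg1), and the log2 ratio of Nos2 to Arg1 was 0.09, 3.97, 1.05 and 1.83 in IgG and 1.52, 1.10, 1.02 and 1.73 in antibody animals. The highest ratio, in IgG animal 2, came with the lowest Arg1 level (1.43 CPM, against 5.77 to 12.04 CPM in the other animals). No difference between the groups was detected (exact permutation p = 0.714).

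Over all 8 animals Nox4 did not follow the phagocyte genes. Its r with the 4 of them was -0.03 to 0.33 and its rho -0.07 to 0.24 (smallest exact permutation p adjusted over 27 relations 0.680 for r). Without the 2 animals farthest from the median of the phagocyte gene, r was -0.30 (Cyba) to 0.74 (Ncf4). There 0 of 4 had an unadjusted exact permutation p under 0.05 (0.075 for Ncf4), so the size of r depended on single animals. On all 8 animals, Nox4 was set against smooth muscle markers as well. It was correlated with the smooth muscle contractile score, the mean log2 CPM of 8 markers, at r = 0.87 and rho = 0.83 (exact permutation p = 0.00454 and 0.0154, adjusted 0.0123 and 0.0346), and r was 0.89 with values centred on the group means. Without antibody animals 2 and 3, the highest and the lowest score, r was 0.56 over 6 animals (exact permutation p = 0.257), so the call of that relation rests on those animals. Of 14627 other genes, 0.923% reached an r of 0.87 with the score. The 5 other members tested had r of -0.06 to 0.29 with it. With this score as a covariate in edgeR, the fold change of Nox4 was -0.23 ± 0.16. The log2 ratio of Nox4 to Cybb was -1.40 ± 0.65 in the IgG group and -1.39 ± 0.53 with the antibody (SD, n = 4, exact permutation p = 1.0).

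Genes whose pattern over the 8 libraries was most like that of a member were picked by the highest Pearson r of log2 CPM among 14635 non-member genes with a mean of at least 1 CPM, and since they are the extremes of that ranking no p is given. For Cybb they were Tmem185b (r = 0.987), Stat3 (0.983), a transcription factor activated by cytokines, and Tmem86a (0.982). For Nox4 they were Ddr2 (0.990), a collagen receptor of mesenchymal cells, Ahnak (0.989), a large scaffold protein, and Setd7 (0.985), a lysine methyltransferase. For Nos2 they were Crim1 (0.976), Rilpl1 (0.973) and Kctd11 (0.963).

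Relatives of the members were measured beside them. Of 14 listed oxidase and synthase genes, 9 passed the filter, 8 had a log2 fold change below 0 and 0 passed the adjusted threshold (median -0.13). The mean log2 CPM of these 9 genes was 3.45 to 3.55 in IgG and 3.29 to 3.41 in antibody animals, and the groups did not overlap. Its exact permutation p was 0.0286, the smallest possible, and 0.315 adjusted over the 11 lists scored, of which the other 10 overlapped. A single list at the smallest possible p could not pass 0.05 after that adjustment, so the adjusted value decides nothing. BC017643, a chaperone of the Cybb protein, had -0.14 ± 0.12. Duox2, an oxidase of epithelia, had -0.87 ± 0.38 at 1.10 ± 0.311 and 0.593 ± 0.264 CPM (8 to 42 counts per library, unadjusted p = 0.0451 in edgeR). That was the largest fold change of the 9 genes, at low counts, and each gene counts equally in their mean log2 CPM. The mean without Duox2 was not computed. Nox1 was near the limit of detection with 0 to 6 counts per library.

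Endothelial synthase was the most abundant of the 3 nitric oxide synthase genes. Nos3 had 66.1, 98.4, 83.3 and 67.8 CPM in IgG and 76.0, 55.0, 80.6 and 76.3 CPM in antibody animals, with a log2 fold change of -0.13 ± 0.17. Per kilobase its mean over the 8 animals was 18.3 CPM, against 0.215 for Nos1, the neuronal form, and a median of 4.71 for Nos2. Nos1 had a log2 fold change of -0.02 ± 0.27.

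Of 18 genes for activation and scaffolding of oxidases, 15 were below 0 and 0 passed (median -0.17). The smallest p were those of Vav1, an exchange factor for Rac proteins (-0.39 ± 0.18), Pik3cg, a lipid kinase of leukocytes (-0.26 ± 0.13), and Prex1, another Rac exchange factor (-0.31 ± 0.17). Vav1 had 44.3 CPM in IgG animal 1 and 65.3 to 83.2 CPM in the other IgG animals, against 45.1 to 55.2 CPM in antibody animals, the same arrangement as Rac2. Of 8 measured transcription factors of Cybb and Nos2, 6 were below 0 and 0 passed (median -0.19), among them Nfkb1 (-0.21 ± 0.11), Spi1 (-0.25 ± 0.16) and Irf1 (-0.20 ± 0.13).

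Genes around arginine, the synthase cofactor and nitric oxide signalling had no common direction, with 8 of 19 below 0 and a median of 0.10. None passed, and the smallest p was that of Qdpr, which recycles the cofactor tetrahydrobiopterin (0.21 ± 0.10). Gchfr (0.82 ± 0.47), a regulator of cofactor synthesis, and Arg2 (-0.82 ± 0.52), a mitochondrial arginase, were low in level, at 4 to 20 and 18 to 166 counts per library. Of 24 antioxidant genes 10 were below 0 and 0 passed (median 0.07). Hmox1, the haem-degrading enzyme of macrophages, had 50.6, 105, 172 and 133 CPM in IgG and 66.3, 59.3, 84.5 and 64.0 CPM in antibody animals. IgG animal 1 was again the lowest and the other 3 IgG animals lay above all antibody animals (log2 fold change -0.75 ± 0.31, unadjusted p = 0.0383 in edgeR, adjusted p = 0.9997). Prdx3 (0.28 ± 0.19) and Sod2 (0.28 ± 0.21), both mitochondrial enzymes, had values above 0.

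Markers of other cells gave these values. Of 6 neutrophil genes kept, 3 were below 0 (median -0.02), with the score between 1.22 and 1.74 in IgG and between 1.10 and 2.01 in antibody animals. Mpo and Elane, both neutrophil granule genes, had 2 to 15 and 0 to 12 counts per library. Csf3r, from the same list, was measured better, with 344 to 828 counts per library and a log2 fold change of -0.43 ± 0.21. Ngp (0.77 ± 0.39) and Retnlg (0.76 ± 0.59), also neutrophil genes, went the other way, at 14 to 61 and 3 to 28 counts per library. All 9 lymphocyte genes were below 0 (median -0.53, 0 past the adjusted threshold), with a score of 0.60 to 2.37 in IgG, highest in IgG animal 1, and 0.12 to 1.03 in antibody animals. Since lymphocytes also express Rac2, their part in its values was not tested. Of 8 smooth muscle, 8 endothelial and 8 adventitial fibroblast genes, 1, 6 and 8 were below 0 (medians 0.10, -0.06 and -0.26), with scores of 7.03 to 7.34, 7.01 to 7.54 and 7.11 to 7.84 in IgG and 6.53 to 7.72, 7.11 to 7.30 and 6.77 to 7.72 in antibody animals.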

How the data were processed

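The authors deposited raw counts per gene symbol for 8 libraries. Per the file headers, featureCounts 1.4.6-p4 counted reads over exons grouped by gene name in the UCSC mm9 annotation, with no option for strand, pairs or multiple alignments. The submitters' processing notes list DESeq2, Subread, STAR 3.0 and CASAVA without saying what each did. The table also gives each gene's exon length in bases, used here for CPM per kb.

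Groups came from the sample titles. Genes were kept by edgeR's filterByExpr (minimum count 10, minimum total 15), scaled by TMM and fitted in R 4.3.3 with edgeR 4.0.16 by robust quasi-likelihood, with Benjamini-Hochberg adjustment over all genes kept. TMM is the trimmed mean of M values. Log2 CPM used a prior count of 2. SE came from the fold change and F statistic. DESeq2 1.42.0 and limma 3.58.1 (voom with sample quality weights) were alternatives. Exact tests were two-sided over animals (70 assignments, smallest possible p 0.0286). The edgeR step and the exact test were tested on simulated data.

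The members and lists were chosen with earlier results of these data known. Named genes were all 7 members, up to 3 genes per list with the smallest p, a fixed panel (Nos1, Nos3, Nox1, Rac1, Arg1 and 1 gene that is not reported here) and 3 genes most like Cybb, Nox4 and Nos2. Values of other genes named were chosen after they were seen (Mpo, Elane, S100a8, S100a9). Emr1 was taken under its symbol Adgre1. Relations were planned with Rac2 and computed without it. No 2 libraries agreed within counting noise (lowest chi-square per degree of freedom 27.9).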

Additional observations from a re-analysis of the deposited data

Results flagged for a closer look

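In 58 groups of 4 animals (member levels, ratios and marker scores), 8 held a value whose distance from its nearest neighbour took more than 0.829 of the group's range, where chance gives about 1 in 20, or 2.9. The groups are not independent, since each member enters both as a level and in ratios over the same animals, so the excess was not tested. IgG animal 1 supplied 5 of the 8, all of them low values of phagocyte genes. Ncf4 and Rac2 each count there as a level and as a ratio to the smooth muscle score, which was the highest of the IgG group in that animal (7.34). Ncf4 was 18.3 CPM in that animal, against 31.7 to 33.7 CPM in the other IgG animals, and Rac2 30.7 CPM against 44.4 to 46.7 CPM. Relative to the smooth muscle score (log2), Cybb was 0.01 there against 1.03 to 1.23, Ncf4 -3.14 against -2.19 to -2.04, and Rac2 -2.40 against -1.70 to -1.56.

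IgG animal 2 was apart for Nox4, at 66.0 CPM against 115 to 120 CPM, and for Nos2 relative to the macrophage score, at -3.29 against -3.96 to -3.85 (log2). That library also had the lowest share of alignments assigned to genes (24.4%, against 27.9% to 34.9% in the others). Antibody animal 2 was apart for Nos2 relative to the smooth muscle score, at -3.80 against -3.03 to -2.94, and had the highest smooth muscle score of the 8, 7.72.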

How the results depend on the processing

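In 17 alternatives to the edgeR fit, 0 of 7 members passed the adjusted threshold. Rac2, Ncf1, Ncf4 and Nos2 were below 0 in 17 of 17, and Rac2 ranged from -0.52 to -0.28. Cybb and Cyba turned to 0.03 each with the macrophage score as a covariate, and Nox4 to 0.10 without antibody animal 3. At an unadjusted p under 0.05 there was 1 member on all animals, 4 with limma-voom and its quality weights (where 9.31% of all genes were lower at that threshold; IgG animal 4 had a weight of 6 and the others 0.320 to 1.68), and 0 to 5 with 1 animal left out: 0 without IgG animal 4, 2 without antibody animal 4 and 5 without IgG animal 1. With an exact permutation test, 0 members had p under 0.05 on all animals, and 0 to 1 with 1 animal left out (1 without IgG animal 1). The share of all genes under that rule is not given here, so this count is not read as a result about the members. Of 27 relations between members and scores, 16 passed on all animals, and 0 passed after adjustment without the 2 farthest animals. The share of other gene pairs that would pass was not computed, so this count is not read as particular to the members. With the replicate number as a block, Rac2 had -0.38 ± 0.15 (edgeR unadjusted p = 0.0450) and 1 member again had an unadjusted p under 0.05. Deviations from the group mean gave r of 0.293, -0.344, -0.127 and -0.001 for same-numbered animals 1 to 4. No pairing by number was seen, but weak correlation of expression cannot exclude one. The causes were not tested. With 4 animals a group, the median half-width of a 95% interval was 0.403 on the log2 scale.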
